A study of Mus musculus with 36 samples.

Results

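The myelinated optic nerve (MON) was examined 3 D after optic nerve crush in C57BL/6 mice of 2 to 4 months of age. Its 4 libraries, of 36 in the series, were taken by the sample labels: 2 of MON at 3 D after crush and 2 of MON from naïve mice with no injury to either eye. By the study's methods the nerve of 1 side was crushed with self-closing forceps, and MON was the first myelinated section behind the transition zone. The distance of the crush from the eye is not given there. Whether this section lay in front of, at or behind the crush is therefore not known. Each library held equal amounts of RNA from 2 mice of 1 sex, so n = 2 pools per group, 1 female and 1 male, and sex cannot be told apart from the differences between these mice. Both groups were of the same strain, and the labels name no transgene, deletion or drug in either. By label they differed in the crush and in the time point. The surgery for crush also took an incision of the conjunctiva, dissection of the orbital venous sinus and erythromycin ointment. No sham operation is described in the methods for the naïve mice. The part of this surgery in the differences from naïve MON was not tested. MON at 2 W after crush (2 pools), MON at 3 D after microbead injection (the glaucoma model, 2 pools), and the unmyelinated optic nerve (UON) of naïve mice and of mice at 3 D after crush (2 pools each) were used where a difference from the 3 D response was tested.

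Optic nerve crush severs the axons of retinal ganglion cells, and the stretch behind the crush then goes through Wallerian degeneration, in which axons break up and their myelin is cleared. Myelin there is made by oligodendrocytes, and the nerve also holds astrocytes, microglia, oligodendrocyte precursor cells, vessels and meninges but no neuronal cell bodies. In the central nervous system microglia and incoming monocytes take up debris, glia can divide, and clearance is slow compared with peripheral nerve.

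The measurements were estimated counts per gene, made from read coverage by the authors. Values are given as CPM, counts relative to the TMM-scaled library total, which is not per gene length, so CPM were compared between libraries and not between genes. The 6 MON libraries of the fit held 16326906 to 78054205 estimated counts, and the naïve pools were the most unequal, with 78054205 in the female pool and 17757595 in the male pool. A gene was called when edgeR's quasi-likelihood test gave an adjusted p under 0.05 (Benjamini-Hochberg over all genes tested) and a log2 fold change beyond 1. In the labelled tissue the myelin genes stood at the top: Mbp (myelin basic protein) had rank 1 of all genes by mean FPKM, which is per gene length, in naïve MON and rank 1 at 3 D. Pmp2, of Schwann cells, and Tyr, of melanocytes, were listed at 0 in all 4 libraries. Other members of their lists were present, so these zeros do not show that the tissues were absent. Of the Schwann cell list, which also holds Mbp, 6 of 8 genes were tested, and of melanocytes and pigment epithelium 4 of 7. The latter list summed to 51.9 and 42.7 CPM in the naïve female and male pools. It summed to 46.3 and 17.1 CPM in the crush female and male pools. A 0 is given here as listed, since the same table also lists mitochondrial genes at 0 in some of these libraries. Photoreceptor RNA was unequal between the pools, with 147 and 21 CPM summed over 10 genes in the naïve female and male pools and 36.7 and 12.4 CPM in the crush pools, and its part in the results was not tested.

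At 3 D after crush, 721 of 19988 genes tested (3.61%) were called higher than in naïve MON and 131 (0.655%) were called lower. Genes of macrophages and of the extracellular matrix were among those with the largest increases, and genes of mitosis were the list with the highest share of calls. The genes with the largest decreases included Igf2, a growth factor of meningeal and perivascular cells, and the receptors Cntfr, Fzd9 and Grik5. Myelin and cholesterol genes stood lower in most members but with few calls or none in this fit. Over all genes tested the median log2 fold change was -0.0049. Of the 19988 genes, 9949 had a fold change above 0 and 4195 had an unadjusted p under 0.05 by edgeR. Such counts on the lists below are to be read beside these. Each group had 2 pools, 1 of each sex, and sex was a term of the fit. The p-values therefore measure how far the difference between female and male pools varied over naïve, 3 D and 2 W MON. They do not measure the spread between mice of a sex. Whether the mice came from separate litters or cages is not given in the sources used here. The mitochondrial genes mt-Nd1 (called lower) and mt-Rnr2 and mt-Atp8 (called higher) are among these counts, each with counts in 1 of the 4 pools and listed at 0 in the other 3, and they are not read as changes. Calls rested on the naïve female pool, the deepest library: without it edgeR kept 8 of the 721 genes called higher and 3 of the 131 called lower, on 1 residual degree of freedom. Without the naïve male pool 131 and 19 were kept, and without the crush male pool 434 and 57. The direction of the fold change was the same in 851 of 852 called genes without the naïve female pool, and in all 852 without the naïve male pool. Other fits called more genes: DESeq2 called 1451 higher and 910 lower, and edgeR called 1627 and 972 without the 2 W male pool and 1702 and 1055 without the 2 W female pool. Counts on lists below are those of edgeR on 6 libraries. For many lists, but not all, larger counts by DESeq2 or the edgeR fits of 5 libraries are given beside them. Among DESeq2 counts (higher and lower) not given there were 5 and 0 for PAN-reactive, 3 and 2 for A1 and 4 and 2 for gp130 genes. Further ones were 7 and 0 for cholesterol uptake, 5 and 1 for glycolysis and 5 and 0 for tip cell genes. Mural genes had 4 and 1, and fibroblast and meningeal genes 2 and 3. Each fit of 5 libraries left out a single pool, and the counts of these fits stand in the order in which the pools are named.

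**Figure D1:**
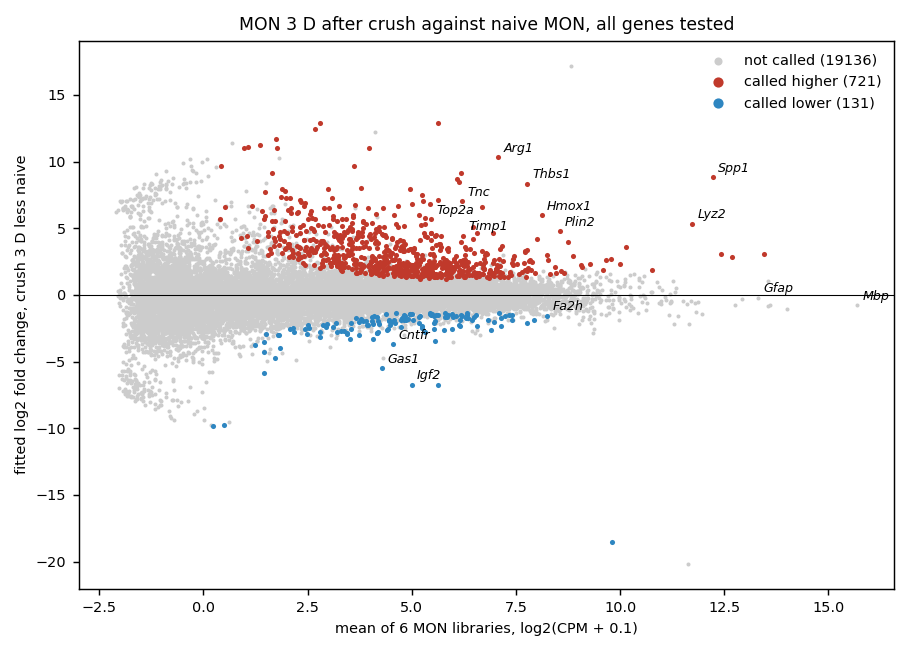
Fitted log2 fold change (3 D after crush less naïve MON) against the mean log2(CPM + 0.1) of the 6 MON libraries for the 19988 genes tested; red points are the 721 genes called higher and blue points the 131 called lower. Spp1 and Lyz2 combine a large increase with a high level, while Mbp and Gfap lie near 0. The blue point near the lower edge is mt-Nd1.

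Genes of mitosis rose nearly as a whole, on a list chosen with earlier results of these data known. Of 34 genes of mitosis, 33 were called higher and none lower, with a median log2 fold change of 4.98, and in 34 of 34 both crush pools lay above both naïve pools, against 28.5% of all genes tested. Mki67 (Ki-67, a protein of dividing nuclei; ENSMUSG00000031004, chromosome 7 from 135689784 to 135716361 on GRCm38) had 2.02 and 1.21 CPM in the naïve female and male pools and 79.6 and 110.3 CPM in the crush female and male pools. The crush pools were close to each other and far above the naïve pools (log2 fold change 5.98, SE 0.56, edgeR adjusted p = 0.00737). Top2a, the topoisomerase that untangles replicated chromosomes, went from 1.71 and 2.80 to 94.1 and 132 CPM in the same order of pools (log2 fold change 5.68, SE 0.45, edgeR adjusted p = 0.00533). Cdk1, the kinase that starts mitosis, went from 1.54 and 0.494 to 57.4 and 66.2 CPM (log2 fold change 6.01, SE 0.52, edgeR adjusted p = 0.00663). Its partner cyclin B1, Ccnb1, went from 2.55 and 1.54 to 74.2 and 58.1 CPM (log2 fold change 5.07, SE 0.38, edgeR adjusted p = 0.00533). Each of these 4 genes was near the lower end of measurable levels in naïve MON and did not overlap between the groups. Ccnb2, Ube2c, Kif2c and Plk1 had the largest increases of the list, with log2 fold changes of 6.53, 6.52, 6.51 and 6.08 (edgeR adjusted p = 0.016, 0.0164, 0.00663 and 0.00533). Summed over the 34 genes, the level was 56.2 and 46 CPM in the naïve female and male pools and 1337 and 1541 CPM at 3 D. The count of calls was 4 without the naïve female pool and 25 without the naïve male pool. In bulk tissue, more dividing cells and more of this RNA per cell cannot be told apart.

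Promoter sequences of the first 4 genes of the mitosis list and of the first 2 of the DNA replication list are given because many promoters of mitotic genes carry a CHR element (searched as TTTGAA) and CCAAT boxes, and those of replication genes carry E2F sites (searched as TTTGGCGC, TTTCCCGC, TTTGCCGC and TTTCGCGC). They are RefSeq promoters on GRCm38.p6, from 250 bases before to 50 bases after the start of the gene, written 5′ to 3′ on the strand of the gene, with matches on either strand in capitals.
Mki67, chr7:135716330-135716629, minus strand: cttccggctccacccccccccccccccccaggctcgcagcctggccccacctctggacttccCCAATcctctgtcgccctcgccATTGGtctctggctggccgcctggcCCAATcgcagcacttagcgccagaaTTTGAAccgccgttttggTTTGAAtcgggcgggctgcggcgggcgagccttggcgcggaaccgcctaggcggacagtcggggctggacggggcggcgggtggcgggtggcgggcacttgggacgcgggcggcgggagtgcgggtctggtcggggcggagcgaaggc
Top2a, chr11:99024140-99024439, minus strand: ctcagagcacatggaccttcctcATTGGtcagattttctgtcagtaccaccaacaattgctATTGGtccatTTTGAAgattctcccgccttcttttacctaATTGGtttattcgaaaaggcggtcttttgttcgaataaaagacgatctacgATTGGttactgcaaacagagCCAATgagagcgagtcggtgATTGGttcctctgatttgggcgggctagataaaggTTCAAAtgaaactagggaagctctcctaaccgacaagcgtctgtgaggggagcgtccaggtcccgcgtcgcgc
Cdk1, chr10:69352863-69353162, minus strand: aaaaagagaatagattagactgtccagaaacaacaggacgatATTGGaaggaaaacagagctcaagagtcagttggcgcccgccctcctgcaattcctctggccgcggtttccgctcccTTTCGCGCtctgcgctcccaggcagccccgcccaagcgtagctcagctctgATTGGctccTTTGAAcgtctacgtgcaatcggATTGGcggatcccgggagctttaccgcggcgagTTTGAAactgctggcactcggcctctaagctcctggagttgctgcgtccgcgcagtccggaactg
Ccnb1, chr13:100786437-100786736, minus strand: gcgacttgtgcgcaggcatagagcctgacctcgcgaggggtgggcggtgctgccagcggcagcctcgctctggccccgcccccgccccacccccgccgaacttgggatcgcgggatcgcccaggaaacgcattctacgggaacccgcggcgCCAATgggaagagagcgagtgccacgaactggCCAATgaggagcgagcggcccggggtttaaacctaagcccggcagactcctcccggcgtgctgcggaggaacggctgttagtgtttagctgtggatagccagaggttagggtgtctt
Mcm2, chr6:88898731-88899030, minus strand: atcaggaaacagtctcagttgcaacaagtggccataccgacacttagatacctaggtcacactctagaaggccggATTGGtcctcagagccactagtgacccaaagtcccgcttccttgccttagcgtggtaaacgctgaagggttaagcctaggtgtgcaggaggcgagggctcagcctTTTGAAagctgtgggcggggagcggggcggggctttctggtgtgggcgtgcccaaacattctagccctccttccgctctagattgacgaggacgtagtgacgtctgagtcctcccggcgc
Mcm3, chr1:20820263-20820562, minus strand: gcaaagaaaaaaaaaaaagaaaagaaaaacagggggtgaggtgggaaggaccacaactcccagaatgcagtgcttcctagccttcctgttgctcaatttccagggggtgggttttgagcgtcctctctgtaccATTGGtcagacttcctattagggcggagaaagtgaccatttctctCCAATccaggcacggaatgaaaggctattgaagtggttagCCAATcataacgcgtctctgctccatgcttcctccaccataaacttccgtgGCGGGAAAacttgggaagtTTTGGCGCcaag
The CHR letters occurred 2 times each in the windows of Mki67, Top2a and Cdk1, and did not occur in the window of Ccnb1. CCAAT occurred 3 times in Mki67, 6 times in Top2a, 3 times in Cdk1 and 2 times in Ccnb1, and Cdk1 also held 1 match to the E2F letters. Over the list, 29 of 34 genes matched the table with 31 promoters, of which 77.4% held TTTGAA and 83.9% held CCAAT, while of 32851 RefSeq promoters 17.9% and 37.4% did. For the DNA replication list (20 of 24 genes matched, 23 promoters) the E2F letters were found in 39.1%, against 2.26% of all promoters, with 2 matches in Mcm3 and none in Mcm2, whose window held 1 CHR match. TTTGAA was found in 13% of these 23 promoters. The motifs did not overlap each other in the windows shown. These matches describe the letters of the windows and were not tested against the expression values.

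Genes of DNA replication rose with those of mitosis, 17 of 24 called higher and none lower, with a median log2 fold change of 2.67. Mcm2, a subunit of the replicative helicase, had 12.4 and 6.98 CPM in the naïve female and male pools and 68 and 89.8 CPM in the crush female and male pools. Both crush pools were several times above both naïve pools (log2 fold change 3.08, SE 0.38, edgeR adjusted p = 0.0114). Mcm3, of the same helicase, went from 15.6 and 16.4 to 80.1 and 100.4 CPM (log2 fold change 2.50, SE 0.31, edgeR adjusted p = 0.0114), and Mcm4 from 36.4 and 22.1 to 68.1 and 65.5 CPM, which was not called (log2 fold change 1.21, SE 0.31, edgeR adjusted p = 0.0774). The largest increase was in Rrm2, the ribonucleotide reductase subunit that limits nucleotide supply, at 0.660 and 0.989 CPM in the naïve female and male pools and 82.9 and 92.6 CPM in the crush female and male pools (log2 fold change 6.81, SE 0.51, edgeR adjusted p = 0.00533). Cdt1, which licenses origins, and Uhrf1, which copies DNA methylation, rose by 5.19 and 4.26 on the log2 scale (edgeR adjusted p = 0.00737 and 0.00822). Of the calls on this list, 1 was left without the naïve female pool, 6 without the naïve male pool and 13 without the crush male pool.

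Among cyclins and CDK inhibitors, 7 of 15 genes were called higher and 1 lower. Ccnd1 (cyclin D1, which couples growth signals to the cycle) had 136 and 169 CPM in the naïve female and male pools and 542 and 505 CPM in the crush female and male pools, with no overlap between groups (log2 fold change 1.78, SE 0.31, edgeR adjusted p = 0.025). Of its relatives, Ccnd3 stood at 129 and 117 CPM in naïve MON and 134 and 189.6 CPM at 3 D, and Ccnd2 at 202 and 210.3 CPM in naïve MON and 136 and 85.5 CPM at 3 D, and neither passed the test. The S-phase cyclin Ccne1 rose by 4.70 (SE 0.71, edgeR adjusted p = 0.0168) and Cdk6 by 3.49 (SE 0.43, edgeR adjusted p = 0.0114) on the log2 scale. The gene called lower in this list was Cdkn1c, the inhibitor p57 that holds cells out of the cycle, at 32.9 and 40.6 CPM in the naïve female and male pools and 12.6 and 6.78 CPM in the crush female and male pools (log2 fold change -1.94, SE 0.41, edgeR adjusted p = 0.0456). The p53 target Cdkn1a (the inhibitor p21) went from 58.6 and 79.3 to 98.7 and 183 CPM and was not called (log2 fold change 0.99, SE 0.28, edgeR adjusted p = 0.0973). Without the naïve female pool no member was called, and without the naïve male pool 1 was called higher. Called lower were 2, 2 and 2 without the 2 W male, the 2 W female and the crush female pool.

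**Figure D2:**
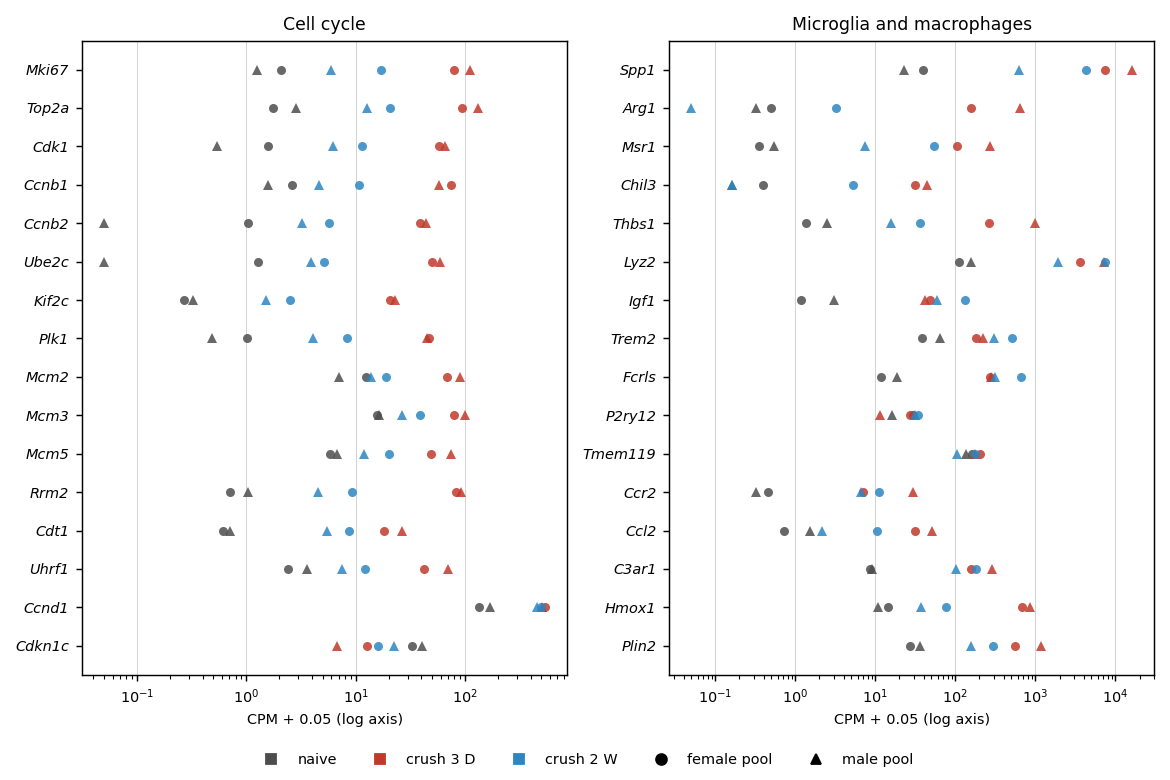
CPM + 0.05 on a log axis for 16 cell cycle genes (left) and 16 genes of microglia and macrophages (right) in the 6 MON pools; colour gives the group and shape the sex. In the left panel the 3 D pools lie to the right of the naïve pools for each gene except Cdkn1c, and in the right panel P2ry12 and Tmem119 stay close to naïve while Spp1 and Arg1 lie far above it.

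Macrophage and phagocyte genes gave the largest single increases. Spp1 (osteopontin, a secreted matrix and signalling protein of phagocytes; ENSMUSG00000029304, chromosome 5 from 104435118 to 104441050 on GRCm38) had 39.4 and 22.6 CPM in the naïve female and male pools and 7445 and 16265 CPM in the crush female and male pools. Both crush pools were more than 100 times above both naïve pools (log2 fold change 8.83, SE 1.11, edgeR adjusted p = 0.0117). By mean FPKM, Spp1 moved from rank 3456 in naïve MON to rank 6 at 3 D. Arg1, arginase 1 of macrophages in repair states, had 0.440 and 0.275 CPM in the naïve female and male pools and 159 and 649 CPM in the crush female and male pools. Its crush pools differed by about 4 times, with the male pool higher, and both were far above naïve (log2 fold change 10.33, SE 1.80, edgeR adjusted p = 0.0255). Msr1, a scavenger receptor, went from 0.303 and 0.494 to 104 and 267 CPM (log2 fold change 9.12, SE 1.22, edgeR adjusted p = 0.0131). Lyz2, the lysozyme of the myeloid lineage, went from 112 and 154 to 3555 and 7148 CPM (log2 fold change 5.34, SE 0.81, edgeR adjusted p = 0.017). Clec4n (dectin-2, a lectin receptor) was listed at 0 in both naïve pools and had 6.95 and 24.7 CPM in the crush pools. Clec4d was likewise listed at 0 in both naïve pools, with 4.12 and 11.6 CPM in the crush pools. Atp6v0d2, a subunit of the lysosomal proton pump of macrophages, had 1 count in the naïve female pool, was listed at 0 in the male pool, and had 9.40 and 21.4 CPM in the crush pools.

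The other named genes with the largest increases were mostly enzymes of macrophages or of matrix breakdown. Adam8, a metalloprotease of leukocytes, went from 0.289 and 0.934 to 118 and 247 CPM (log2 fold change 8.48, SE 1.16, edgeR adjusted p = 0.0134). Acp5, the acid phosphatase of osteoclasts and activated macrophages, went from 0.771 and 0 to 41.2 and 113 CPM (log2 fold change 7.95, SE 1.3, edgeR adjusted p = 0.0211). Hpse, heparanase, was at 0.0963 CPM in the naïve female pool, listed at 0 in the naïve male pool and at 6.56 and 20.6 CPM at 3 D. F7, coagulation factor VII, was at 0.0826 CPM in the naïve female pool, listed at 0 in the naïve male pool and at 16.1 and 54.4 CPM at 3 D. Their counts in the naïve female pool were 7 and 6, too few for a fold change. In each of these 4 genes both crush pools lay far above both naïve pools.

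By lists, 15 of 21 genes of phagocytic and disease-associated microglia were called higher (median log2 fold change 3.04), and 10 of 19 of monocytes and macrophages (3.58). No member of either list was called lower. Trem2, the lipid receptor of phagocytic microglia, had 37.7 and 64.7 CPM in the naïve female and male pools and 181 and 220.4 CPM in the crush female and male pools (log2 fold change 1.98, SE 0.41, edgeR adjusted p = 0.0422). Tyrobp, its adaptor, went from 108 and 193 to 503 and 667 CPM and was not called (log2 fold change 1.97, SE 0.43, edgeR adjusted p = 0.0516). Igf1 rose by 4.51 and Itgax (CD11c) by 3.69 on the log2 scale (edgeR adjusted p = 0.0141 and 0.0272). Cst7 went from 3.30 and 7.86 to 31.3 and 20.6 CPM and lay just outside the threshold (edgeR adjusted p = 0.0511). Ccr2, the receptor that draws monocytes from blood, had 0.399 and 0.275 CPM in the naïve female and male pools and 6.90 and 29.7 CPM in the crush female and male pools (log2 fold change 5.53, SE 0.85, edgeR adjusted p = 0.0178), and Chil3 went from 0.344 and 0.110 to 30.8 and 44.7 CPM (log2 fold change 8.0, SE 1.43, edgeR adjusted p = 0.0276). Ly6c2 and Plac8, further genes of blood monocytes, stayed at or below 3.74 CPM in all 4 pools and were not called. The counts of the lists fell to 0 and 0 without the naïve female pool, and to 4 and 2 without the naïve male pool.

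Of homeostatic microglial genes 1 of 14 was called, with a median log2 fold change of 0.20. P2ry12, the purine receptor of resting microglia, had 29.7 and 16.3 CPM in the naïve female and male pools and 27 and 11.5 CPM in the crush female and male pools, so the groups overlapped (log2 fold change -0.30, SE 0.34, edgeR adjusted p = 0.68). Tmem119, another microglial gene, went from 159 and 134 to 201 and 177 CPM and was not called (log2 fold change 0.37, SE 0.28, edgeR adjusted p = 0.513). The called member was Fcrls, at 11.7 and 18.6 CPM in the naïve female and male pools and 274 and 279 CPM in the crush female and male pools (log2 fold change 4.18, SE 0.48, edgeR adjusted p = 0.00988). Cx3cr1, the fractalkine receptor, differed by more than 10 times between the crush pools, at 13.1 CPM in the female and 163 CPM in the male pool, with 6.12 and 23.2 CPM in naïve MON. Without the 2 W male, the 2 W female and the crush female pool the list had 3, 3 and 2 calls higher and 2, 2 and 2 lower.

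Of 13 neutrophil genes 7 passed the filter on low counts and edgeR called 2 higher, Mmp8 and Mmp9, proteases that macrophages also make. In 7 of these 7 both crush pools lay above both naïve pools (28.5% of all genes tested did so), with a median log2 fold change of 5.07, and 5 had an unadjusted p under 0.05. The list summed to 20.1 and 21.4 CPM in naïve MON and 60.5 and 78.3 CPM at 3 D. A gene near 0 in naïve MON could pass the filter only through its crush or 2 W pools. DESeq2 called 3 higher, and edgeR 5, 5 and 4 without the 2 W male, the 2 W female and the crush female pool, but none without either naïve pool. Ly6g, which defines neutrophils, was listed at 0 in all 4 pools, and S100a8 stood at 0 and 0.494 CPM in naïve MON and 3.89 and 7.94 CPM at 3 D without a call. Of 12 lymphocyte genes 8 passed the filter and edgeR called none (1 at an unadjusted p under 0.05, and 1 higher and 0 lower by DESeq2). Cd3e stood at 0.151 and 0.604 CPM in naïve MON and 0.223 and 0.363 CPM at 3 D.

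Ligands that draw or activate leukocytes rose beside the phagocyte genes. Of 27 chemokines and receptors 10 were called higher and none lower, with a median log2 fold change of 1.92. Ccl2, the main ligand of Ccr2, had 0.660 and 1.48 CPM in the naïve female and male pools and 31.7 and 51.5 CPM in the crush female and male pools (log2 fold change 5.36, SE 0.88, edgeR adjusted p = 0.0215). Ccl7, a further ligand of Ccr2, went from 0.894 and 0.879 to 16.2 and 42.8 CPM (log2 fold change 5.09, SE 0.82, edgeR adjusted p = 0.0206). Further chemokines of the CC class followed, with Ccl3, Ccl4 and Ccl5 up by 2.65, 3.62 and 3.02 on the log2 scale (edgeR adjusted p = 0.0147, 0.00737 and 0.0363). The count was 0 without the naïve female pool and 2 without the naïve male pool, while DESeq2 with group and sex as terms called 16 and edgeR 16 and 17 without the 2 W male and the 2 W female pool.

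In the list of IL-1, TNF and Toll-like receptor genes edgeR called 4 of 21 higher (median log2 fold change 1.73), 3 of them Toll-like receptors (Tlr1, Tlr2 and Tlr7) and the fourth Tnfrsf1b, a TNF receptor. The count of this list depended on the fit: DESeq2 called 12, and edgeR called 12, 13 and 10 without the 2 W male, the 2 W female and the crush female pool. Il1b stood at 0.289 and 0.494 CPM in naïve MON and 1.11 and 5.02 CPM at 3 D and was not called (log2 fold change 3.02, SE 1.24, edgeR adjusted p = 0.22). Interferon-stimulated genes gave 0 edgeR calls of 16 (3 at an unadjusted p under 0.05, 2 called higher and 1 lower by DESeq2), with a median log2 fold change of -0.23. Of all 19988 genes tested, 4195 had an unadjusted p under 0.05. Ifit1 had 121 and 18.5 CPM in the naïve female and male pools and 72.7 and 13.7 CPM in the crush female and male pools, so the female pool was above the male pool in both groups. Of the antigen presentation list 1 of 16 was called higher (3.61% of all genes tested), the costimulatory gene Cd86 (log2 fold change 1.67, SE 0.35, edgeR adjusted p = 0.0456). A positive fold change was found in 16 of 16 (9949 of 19988 over all genes tested), with a median of 1.26. DESeq2 called 5 of these 16 higher, and edgeR 9, 9 and 7 without the 2 W male, the 2 W female and the crush female pool. The Toll-like receptor and antigen presentation lists had no call without the naïve female pool and none without the naïve male pool.

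Receptors for antibodies and complement rose together with the phagocyte genes. In the list of Fc receptors and myeloid surface genes 8 of 16 were called higher (median log2 fold change 2.06), among them Fcgr4 (log2 fold change 3.85, SE 0.56, edgeR adjusted p = 0.0156) and Cd84 (log2 fold change 3.16, SE 0.49, edgeR adjusted p = 0.019). In the complement list 5 of 19 were called, namely the receptors C3ar1, C5ar1, Itgam and Itgb2 and the stabiliser Cfp (properdin). C3ar1, the receptor of the fragment C3a, had 8.52 and 8.90 CPM in the naïve female and male pools and 158 and 284 CPM in the crush female and male pools (log2 fold change 4.66, SE 0.46, edgeR adjusted p = 0.00737). C5ar1, the receptor of C5a, went from 9.52 and 7.80 to 135 and 281 CPM (log2 fold change 4.63, SE 0.59, edgeR adjusted p = 0.0118). The C1q chains, which start the classical pathway, stood higher without a call: C1qa went from 156 and 245 to 484 and 598 CPM (log2 fold change 1.43, SE 0.43, edgeR adjusted p = 0.117). C3 itself had 212 and 250.2 CPM in the naïve female and male pools and 135 and 26 CPM in the crush female and male pools, with the crush male pool lowest, and was not called (log2 fold change -1.66, SE 0.73, edgeR adjusted p = 0.25). Without the naïve female pool neither list had a call, and each had 1 without the naïve male pool. DESeq2 called 15 of the Fc receptor and surface genes higher and 8 of the complement genes. Without the 2 W male, the 2 W female and the crush female pool the Fc receptor and surface list had 16, 16 and 12 calls higher, and the complement list 9, 9 and 6 higher and 2, 2 and 2 lower.

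Cytokines of the gp130 family, which act through STAT3, gave 3 calls of 16. Lif went from 0.372 and 0.275 to 9.23 and 6.76 CPM (log2 fold change 4.67, SE 0.65, edgeR adjusted p = 0.0147) and Clcf1 from 4.73 and 4.56 to 43.1 and 27.7 CPM (log2 fold change 2.91, SE 0.35, edgeR adjusted p = 0.0114). Socs3, the feedback inhibitor that STAT3 induces, had 19.9 and 17.4 CPM in the naïve female and male pools and 148 and 147 CPM in the crush female and male pools, with the pools of each group close together (log2 fold change 2.99, SE 0.30, edgeR adjusted p = 0.00737). Cntf, the ciliary neurotrophic factor, stood at 27.1 and 27.6 CPM in naïve MON and 17.8 and 3.46 CPM at 3 D and was not called, while its receptor subunit Cntfr was among the genes called lower, at 71 and 28 CPM in the naïve female and male pools and 3.84 and 3.46 CPM in the crush female and male pools (log2 fold change -3.70, SE 0.51, edgeR adjusted p = 0.0145). Stat3 itself stood at 230.5 and 192 CPM in naïve MON and 299.6 and 286 CPM at 3 D (log2 fold change 0.47, SE 0.28, edgeR adjusted p = 0.385). No call of this list was left without the naïve female pool, and 2 were without the naïve male pool. Without the 2 W male, the 2 W female and the crush female pool 5, 5 and 4 were called higher and 2, 2 and 1 lower.

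Genes of myelin and mature oligodendrocytes gave 0 calls higher and 2 lower of 30, with a median log2 fold change of -0.50. Mbp had 88124 and 72378 CPM in the naïve female and male pools and 49819 and 42763 CPM in the crush female and male pools. Both crush pools lay below both naïve pools, but the difference was not called (log2 fold change -0.79, SE 0.48, edgeR adjusted p = 0.402). The same held in 20 of 30 genes of the list, against 26.3% of all genes tested. Mag, which faces the axon, went from 3007 and 2566 to 2303 and 2675 CPM, so that its groups overlapped (log2 fold change -0.17, SE 0.37, edgeR adjusted p = 0.846). Among the calls was Fa2h, the hydroxylase that makes the 2-hydroxy fatty acids of myelin lipids, at 628 and 491 CPM in the naïve female and male pools and 176 and 205 CPM in the crush female and male pools (log2 fold change -1.56, SE 0.32, edgeR adjusted p = 0.0411). The call of Fa2h was kept in 2 of 6 fits that each left out a library (those without a 2 W pool). DESeq2 called 5 genes of the list lower and 1 higher, and edgeR called 5, 5 and 2 lower without the 2 W male, the 2 W female and the crush female pool. Summed over the list, the level was 168566 and 133929 CPM in the naïve female and male pools, 110465 and 102452 CPM at 3 D, and 55982 and 71632 CPM at 2 W.

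The precursor lineage gave no call higher. Pdgfra, the receptor that marks oligodendrocyte precursor cells, had 79.8 and 55.9 CPM in the naïve female and male pools and 69.8 and 64 CPM in the crush female and male pools (log2 fold change -0.00, SE 0.25, edgeR adjusted p = 0.999), and Cspg4 (NG2) went from 62 and 68.9 to 106 and 97.8 CPM (log2 fold change 0.62, SE 0.38, edgeR adjusted p = 0.407). Gpr17, of cells about to differentiate, differed by 10 times between the crush pools, at 80.7 CPM in the female and 8.02 CPM in the male pool. The single call of the 18 genes was Fyn, a kinase of process outgrowth, which fell from 105 and 82.2 to 38.2 and 24.2 CPM (log2 fold change -1.60, SE 0.32, edgeR adjusted p = 0.0379). That call was lost without the naïve female pool, the naïve male pool or the crush male pool. DESeq2 called 2 genes of the list lower, and edgeR 4, 4 and 4 without the 2 W male, the 2 W female and the crush female pool.

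Cholesterol synthesis gave 0 edgeR calls of 19 (4 at an unadjusted p under 0.05, 0 higher and 2 lower by DESeq2), with a median log2 fold change of -0.49 and 16 of 19 below 0. Of all 19988 genes tested, 4195 had an unadjusted p under 0.05 and 9949 had a fold change above 0. Hmgcs1, an early enzyme of the pathway, stood at 1078 and 693 CPM in the naïve female and male pools and 542 and 352 CPM in the crush female and male pools (log2 fold change -0.99, SE 0.39, edgeR adjusted p = 0.205). The list's summed level was 3686 and 2735 CPM in naïve MON, 2339 and 1653 CPM at 3 D, and 615 and 877 CPM at 2 W. In the list of uptake, export and storage edgeR called 4 of 16 higher, Plin2, Abca1, Lpl and Ch25h. Plin2, which coats lipid droplets, had 27.2 and 35.5 CPM in the naïve female and male pools and 553 and 1172 CPM in the crush female and male pools (log2 fold change 4.76, SE 0.55, edgeR adjusted p = 0.01). Abca1, which exports cholesterol, went from 48.3 and 32.8 to 212 and 202 CPM (log2 fold change 2.38, SE 0.30, edgeR adjusted p = 0.0117), and Lpl, which frees fatty acids from lipoproteins, from 4.02 and 6.43 to 52 and 39.7 CPM (log2 fold change 3.12, SE 0.41, edgeR adjusted p = 0.0124). Ch25h, which makes an oxysterol, rose by 3.02 on the log2 scale (SE 0.34, edgeR adjusted p = 0.00988). Apoc2, an activator of Lpl that is not in this list and was named among the 12 largest increases, had 0 and 1.21 CPM in the naïve female and male pools and 102 and 220.2 CPM in the crush female and male pools (log2 fold change 8.70, SE 1.55, edgeR adjusted p = 0.0272). Of the 4 calls on the list none was left without the naïve female pool and 2 without the naïve male pool, and 7, 7 and 7 genes were called without the 2 W male, the 2 W female and the crush female pool.

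**Figure D3:**
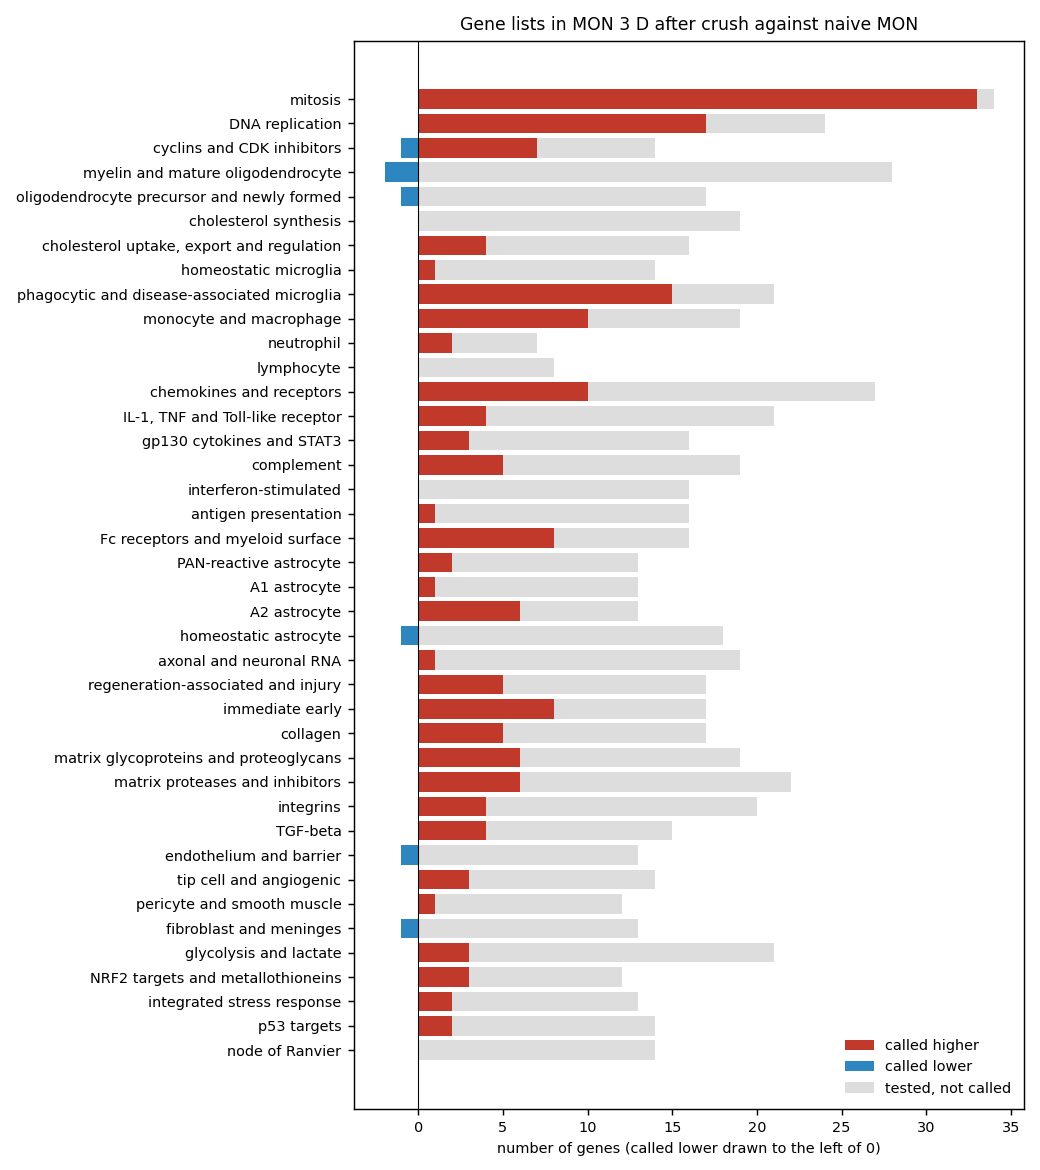
Number of genes called higher (red, right of 0), called lower (blue, left of 0) and tested without a call (grey) in MON at 3 D after crush against naïve MON, for 40 lists of genes. Mitosis has 33 calls of 34 genes, and cholesterol synthesis, interferon-stimulated genes, lymphocytes and the node of Ranvier have none.

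Astrocyte genes of the resting state stood lower, with a median log2 fold change of -1.03, and edgeR called 1 of 19 lower. DESeq2 called 7 lower, edgeR with only the 4 libraries compared 10, and edgeR without the 2 W male, the 2 W female and the crush female pool 9, 9 and 6. Aqp4, the water channel of astrocyte endfeet, had 738 and 424 CPM in the naïve female and male pools and 292 and 70.4 CPM in the crush female and male pools. Both crush pools lay below both naïve pools, and the male crush pool was about 4 times below the female one (log2 fold change -1.85, SE 0.54, edgeR adjusted p = 0.109). Gja1, connexin 43, went from 734 and 396 to 279 and 65.4 CPM (log2 fold change -1.82, SE 0.72, edgeR adjusted p = 0.207), and the glutamate transporter Slc1a2 from 231 and 309 to 119 and 56.6 CPM (log2 fold change -1.69, SE 0.40, edgeR adjusted p = 0.0612). Gjb6, connexin 30, was the gene called lower, at 43.7 and 33.9 CPM in the naïve female and male pools and 10.4 and 3.15 CPM in the crush female and male pools (log2 fold change -2.65, SE 0.52, edgeR adjusted p = 0.0357). Its call was lost without either naïve pool. The list summed to 12626 and 9953 CPM in naïve MON, and to 7051 CPM in the female and 3374 CPM in the male crush pool.

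Gfap, the intermediate filament used to mark reactive astrocytes, did not pass the test. It had 10971 and 8206 CPM in the naïve female and male pools and 10895 and 5915 CPM in the crush female and male pools (log2 fold change -0.20, SE 0.51, edgeR adjusted p = 0.867). Of the PAN-reactive list 2 of 13 were called higher. Timp1, an inhibitor of metalloproteases, had 4.17 and 8.24 CPM in the naïve female and male pools and 137 and 124 CPM in the crush female and male pools (log2 fold change 4.43, SE 0.42, edgeR adjusted p = 0.00737), and Cd44, the hyaluronan receptor, went from 37.8 and 34.3 to 209 and 166 CPM (log2 fold change 2.37, SE 0.27, edgeR adjusted p = 0.00988). Lcn2 ranged from 1.24 CPM in the naïve female pool to 55.5 CPM in the crush female pool, with 30.4 and 16.3 CPM in the male pools, and was not called. Of the A1 list 1 of 13 was called (Ggta1, log2 fold change 1.57, SE 0.32, edgeR adjusted p = 0.0418) and of the A2 list 6 of 13. The A2 genes called were Tgm1, Clcf1, Tm4sf1, Cd14, Ptx3 and S100a10. Tgm1, a transglutaminase, had 0.619 and 1.10 CPM in the naïve female and male pools and 92.5 and 119 CPM in the crush female and male pools (log2 fold change 7.09, SE 0.82, edgeR adjusted p = 0.00988), and Tm4sf1 went from 32.7 and 48 to 220.4 and 257 CPM (log2 fold change 2.59, SE 0.28, edgeR adjusted p = 0.00822). Cd14 is also a receptor of myeloid cells, whose genes rose in the same pools, and the part of those cells in the list's change was not tested. The study used lists of these 3 names, and without the naïve male pool they had 3, 0 and 3 calls in that order, while all 3 had none without the naïve female pool. The PAN-reactive list had 5, 6 and 3 calls higher without the 2 W male, the 2 W female and the crush female pool, and the A1 list 3, 3 and 2 higher and 3, 3 and 3 lower.

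Of 19 genes tested of the axonal and neuronal list, edgeR called 1 higher and none lower (8 had an unadjusted p under 0.05), and the median log2 fold change was -0.81. DESeq2 called 1 higher and 3 lower, edgeR with only the 4 libraries compared called 4 lower, and edgeR without the 2 W male, the 2 W female and the crush female pool called 4, 4 and 2 lower. Nefl, the light neurofilament chain, had 105 and 62.4 CPM in the naïve female and male pools and 78.3 and 28.7 CPM in the crush female and male pools (log2 fold change -0.79, SE 0.32, edgeR adjusted p = 0.21). Nefm and Nefh, the medium and heavy chains, stood at 4.83 and 6.10 CPM in naïve MON and 8.34 and 6.03 CPM at 3 D and at 17.6 and 17.4 CPM in naïve MON and 4.73 and 3.30 CPM at 3 D, without a call. Kif5a, a kinesin motor of axonal transport that is not in the list and was named from the comparison with 2 W, had 10897 and 6189.9 CPM in the naïve female and male pools and 4599 and 2031 CPM in the crush female and male pools (log2 fold change -1.40, SE 0.46, edgeR adjusted p = 0.142). The gene of the list called higher was Stmn2, a growth cone protein that regulates microtubules, at 4.58 and 7.75 CPM in the naïve female and male pools and 40.0 and 20.4 CPM in the crush female and male pools (log2 fold change 2.22, SE 0.48, edgeR adjusted p = 0.0485). Among the 6 fits that left out a library, its call was lost without the naïve female pool alone. It was also lost with RLE in place of TMM scaling and with all 12 MON libraries in the fit. Genes of the node of Ranvier gave 0 edgeR calls of 14, with 6 at an unadjusted p under 0.05 and 0 higher and 3 lower by DESeq2, and a median log2 fold change of -0.63. Of these genes 4, 5 and 2 were called lower without the 2 W male, the 2 W female and the crush female pool.

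Growth and injury genes gave a partial response. In the regeneration-associated list 5 of 17 were called higher. Gdnf, a neurotrophic factor, was listed at 0 in both naïve pools and had 2.39 and 4.66 CPM at 3 D. Atf3, a transcription factor of injured neurons and glia, had 15.5 and 14 CPM in the naïve female and male pools and 42.7 and 45.7 CPM in the crush female and male pools (log2 fold change 1.59, SE 0.28, edgeR adjusted p = 0.0273). Jun stood at 326 and 184 CPM in naïve MON and 418 and 458 CPM at 3 D without a call, and Sprr1a, a classical marker of regenerating neurons, was listed at 0 in 3 of the 4 pools and had 4 counts in the crush male pool. Immediate early genes gave 8 calls of 17. Myc had 4.27 and 4.12 CPM in the naïve female and male pools and 38.6 and 39 CPM in the crush female and male pools (log2 fold change 3.21, SE 0.32, edgeR adjusted p = 0.00737), Ccn1 went from 31.4 and 20.4 to 327 and 234 CPM (log2 fold change 3.44, SE 0.34, edgeR adjusted p = 0.00737) and Egr1 from 15.1 and 8.90 to 66.2 and 65.4 CPM (log2 fold change 2.48, SE 0.31, edgeR adjusted p = 0.0114). Fos stood at 49.4 and 26 CPM in naïve MON and 89.2 and 88.1 CPM at 3 D and was not called (log2 fold change 1.29, SE 0.30, edgeR adjusted p = 0.0612). Without the naïve female pool neither list had a call, and without the naïve male pool they had 0 and 4. The first list had 8, 9 and 6 calls without the 2 W male, the 2 W female and the crush female pool.

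Genes of matrix proteins and of matrix proteases both rose in part. Tnc (tenascin C) had 0.605 and 2.86 CPM in the naïve female and male pools and 168 and 234 CPM in the crush female and male pools (log2 fold change 7.03, SE 0.99, edgeR adjusted p = 0.015). Thbs1 (thrombospondin 1), an adhesive glycoprotein that activates TGF-beta, had 1.29 and 2.42 CPM in the naïve female and male pools and 266 and 975 CPM in the crush female and male pools (log2 fold change 8.32, SE 0.87, edgeR adjusted p = 0.0077). Fn1 (fibronectin) went from 74.9 and 128 to 651 and 905 CPM (log2 fold change 2.95, SE 0.44, edgeR adjusted p = 0.0167), while Tnr, the tenascin of the mature central nervous system, stood at 60.0 and 55.1 CPM in naïve MON and 42.4 and 27.3 CPM at 3 D and was not called (log2 fold change -0.75, SE 0.27, edgeR adjusted p = 0.165). With Spp1, Ncan and Loxl2 these made 6 calls of 19. Among collagens 5 of 17 were called, among them the basement membrane chains Col4a1 (34.7 and 32.5 to 177 and 168 CPM; log2 fold change 2.36, SE 0.26, edgeR adjusted p = 0.00912) and Col4a2 (log2 fold change 2.02, edgeR adjusted p = 0.0122). The fibrillar chain Col1a1 stood at 66.6 and 30.4 CPM in naïve MON and 93.3 and 183 CPM at 3 D without a call (log2 fold change 1.60, SE 0.50, edgeR adjusted p = 0.125). Neither list had a call without the naïve female pool, and without the naïve male pool they had 2 and 0. DESeq2 called 10 collagens higher, and edgeR 10, 11 and 7 without the 2 W male, the 2 W female and the crush female pool. In those 3 fits 2, 2 and 1 matrix glycoproteins and proteoglycans were called lower.

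Genes of the plasminogen system were called among 22 matrix proteases and inhibitors, of which 6 were called higher. Plaur, the urokinase receptor, had 1.68 and 1.37 CPM in the naïve female and male pools and 54.6 and 113 CPM in the crush female and male pools (log2 fold change 5.76, SE 0.55, edgeR adjusted p = 0.00737). Plau, urokinase itself, went from 0.138 and 0.275 to 6.29 and 4.35 CPM (log2 fold change 4.79, SE 0.75, edgeR adjusted p = 0.0194). Mmp2, a gelatinase, went from 14.3 and 10.8 to 25.8 and 29.4 CPM and was not called (log2 fold change 1.19, SE 0.36, edgeR adjusted p = 0.116). Among integrins 4 of 20 were called: the fibronectin receptor chain Itga5, at 11.7 and 7.75 CPM in the naïve female and male pools and 145 and 152 CPM in the crush female and male pools (log2 fold change 3.95, SE 0.31, edgeR adjusted p = 0.00533), and the leukocyte chains Itgax, Itgam and Itgb2. Itga5 was called in 6 of 6 fits that left out a library. The TGF-beta list gave 4 calls of 15, Gdf15, Tgfbi, Inhba and Ltbp2, while the ligand genes Tgfb1, Tgfb2 and Tgfb3 gave none. Tgfbi went from 28.9 and 20.9 to 153 and 309.8 CPM (log2 fold change 3.27, SE 0.53, edgeR adjusted p = 0.0207). Without the 2 W male, the 2 W female and the crush female pool the protease list had 14, 14 and 11 calls higher and the integrin list 9, 9 and 8.

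Of vessel genes, edgeR called 3 of 14 tip cell and angiogenic genes higher (Esm1, Cxcr4 and Nid2). Esm1, an endothelial proteoglycan of tip cells (ENSMUSG00000042379, chromosome 13 from 113209659 to 113218098 on GRCm38), had 3.22 and 1.76 CPM in the naïve female and male pools and 91.2 and 38.6 CPM in the crush female and male pools. Both crush pools stood more than 10 times above both naïve pools, and the gene was called in 6 of 6 fits that left out a library (log2 fold change 4.65, SE 0.31, edgeR adjusted p = 0.00533). Of the endothelial list 1 of 14 was called lower: Mfsd2a, the lipid transporter of the blood-brain barrier, at 41.4 and 40.8 CPM in the naïve female and male pools and 15 and 7.60 CPM in the crush female and male pools (log2 fold change -1.90, SE 0.40, edgeR adjusted p = 0.0434). Pecam1 stood at 18.3 and 16.2 CPM in naïve MON and 31 and 45 CPM at 3 D and Flt1 at 37.4 and 34.6 CPM in naïve MON and 29.3 and 34.5 CPM at 3 D, without a call. Acta2, smooth muscle actin, was the 1 gene of 12 called among mural genes (6.45 and 10.7 to 18.4 and 38.2 CPM; log2 fold change 1.67, SE 0.33, edgeR adjusted p = 0.0371). Of 6 red cell genes edgeR called none on 6 libraries (2 had an unadjusted p under 0.05), DESeq2 called 1 higher, and edgeR called 5, 5 and 5 higher without the 2 W male, the 2 W female and the crush female pool and 5 without the filter on low counts. They stood highest in the crush male pool, where Hba-a1 had 574 CPM against 262 CPM in the crush female pool and 193 and 168 CPM in naïve MON. The part of blood in the myeloid results was not tested. The call of Mfsd2a was lost without either naïve pool and without the crush male pool. That of Acta2 was lost without the naïve female pool. Without the 2 W male, the 2 W female and the crush female pool 6, 6 and 5 tip cell, 4, 4 and 0 endothelial and 5, 5 and 4 mural genes were called higher.

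Metabolic and stress genes showed single strong members. Hmox1, heme oxygenase 1, had 14.3 and 10.8 CPM in the naïve female and male pools and 671 and 855 CPM in the crush female and male pools (log2 fold change 5.97, SE 0.47, edgeR adjusted p = 0.00533). Of the other NRF2 targets, Srxn1 and Txnrd1 were called higher (log2 fold changes 1.58 and 1.51, edgeR adjusted p = 0.0221 and 0.0362) and Gclm stood at 65.7 and 51.4 CPM in naïve MON and 23 and 20.8 CPM at 3 D without a call. Of glycolysis and lactate genes 3 of 21 were called: Slc16a3, a lactate exporter, Hk2, an inducible hexokinase, and Gpd1, which diverts carbon to glycerol phosphate. Gpd1 had 328 and 219 CPM in the naïve female and male pools and 867 and 2019 CPM in the crush female and male pools (log2 fold change 2.32, SE 0.48, edgeR adjusted p = 0.0423). Asns and Trib3 were the calls of 13 genes of the integrated stress response. Of 12 housekeeping genes 1 was called, Actb, at 684 and 793 CPM in the naïve female and male pools and 2626 and 2801 CPM in the crush female and male pools (log2 fold change 1.88, SE 0.40, edgeR adjusted p = 0.0481). The call of Actb was lost without either naïve pool, without the crush male pool and with RLE in place of TMM scaling. Of these 3 lists of metabolism and stress none had a call left without the naïve female pool, and 1 call (Hmox1's list) was left without the naïve male pool. The glycolysis list had 5, 5 and 3 calls higher and 2, 2 and 2 lower without the 2 W male, the 2 W female and the crush female pool.

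Among the genes called lower, Igf2 (ENSMUSG00000048583, chromosome 7 from 142650766 to 142666816 on GRCm38) had 21.2 and 75.8 CPM in the naïve female and male pools and 0.501 and 0.382 CPM in the crush female and male pools. Its naïve pools differed by more than 3 times, and both crush pools lay more than 40 times below the lower of them (log2 fold change -6.73, SE 0.65, edgeR adjusted p = 0.00737). Gas1, a coreceptor of hedgehog ligands, went from 10.8 and 45.4 to 0.501 and 0.611 CPM (log2 fold change -5.49, SE 0.59, edgeR adjusted p = 0.00822). Both were called in 6 of 6 fits that left out a library. Slc22a8, an organic anion transporter of vessels and meninges, went from 12.8 and 33.4 to 3.50 and 2.10 CPM (log2 fold change -2.83, SE 0.59, edgeR adjusted p = 0.0438). Fibroblast and meningeal genes as a list gave 1 call of 14, Igf2, and summed to 3089 and 6777 CPM in naïve MON and 1715 and 1107 CPM at 3 D. Without the 2 W male, the 2 W female and the crush female pool 4, 5 and 5 of them were called lower and 2, 2 and 3 higher. How much of the meninges stayed on the nerve at dissection was not measured, and its part in these values was not tested. Fzd9, a Wnt receptor, went from 75.3 and 46.4 to 7.62 and 3.46 CPM (log2 fold change -3.50, SE 0.48, edgeR adjusted p = 0.0134), Grik5, a kainate receptor subunit, from 18 and 23.1 to 1.67 and 2.60 CPM (log2 fold change -3.31, SE 0.43, edgeR adjusted p = 0.0122), and Gabrr2, a GABA receptor subunit, from 19.2 and 14.7 to 2.39 and 1.39 CPM (log2 fold change -3.20, SE 0.45, edgeR adjusted p = 0.015). Jph4, Tmem163, Lrrc75b, Plpp6 and Tmed7 completed the 12 named decreases, for which predicted, Rik, mitochondrial and pseudogene loci were left out, with log2 fold changes of -3.28, -3.05, -2.91, -2.89 and -2.88 (edgeR adjusted p = 0.0183, 0.0126, 0.0318, 0.0382 and 0.0122). Among the genes left out was the predicted gene Gm3226, chosen after its values were seen, which fell by 6.75 on the log2 scale (edgeR adjusted p = 0.00533).

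**Figure D4:**
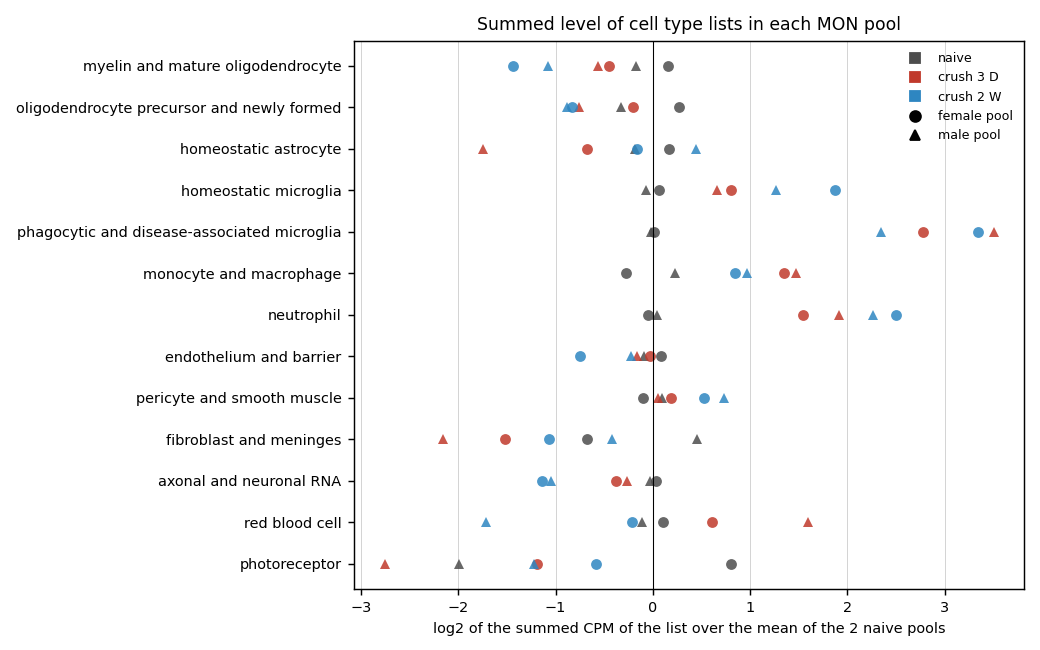
Summed CPM of 13 cell type lists in each of the 6 MON pools, as the log2 of the ratio to the mean of the naïve pools; colour gives the group and shape the sex. Phagocyte lists lie to the right of the naïve pools at 3 D and 2 W, and the homeostatic astrocyte list is lowest in the 3 D male pool.

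Which of these levels belonged to 3 D and not to 2 W was tested directly between the crush groups, a contrast without the naïve pools. edgeR called 12 genes higher at 3 D than at 2 W (0.06% of 19988 tested) and 3 lower (0.015%), 15 in all (0.075%), and 2493 genes had an unadjusted p under 0.05. Of the axonal and neuronal list 1 of 19 genes was called, Nefl. It had 78.3 and 28.7 CPM in the female and male pools at 3 D and 0.516 and 0.112 CPM at 2 W (log2 difference 7.50, SE 0.46, edgeR adjusted p = 0.00717). Unc13c, Kif5a, Rph3a and Nrsn1, which are in none of the lists, were named by the size of this difference. Unc13c, a presynaptic priming protein, had 1607 and 1172 CPM in naïve MON, 577 and 358 CPM at 3 D and 4.01 and 4.60 CPM at 2 W (log2 difference 6.70, edgeR adjusted p = 0.00717). Kif5a fell from 4599 and 2031 CPM at 3 D to 90.1 and 103 CPM at 2 W (log2 difference 4.96, edgeR adjusted p = 0.0381). Rph3a, a synaptic vesicle protein, and Nrsn1, a neuronal membrane protein, had log2 differences of 6.20 and 5.12 (edgeR adjusted p = 0.0103 and 0.0103). For Kif5a, Unc13c, Rph3a and Nrsn1 both 3 D pools lay between the naïve and the 2 W pools, while for Nefl the 3 D female pool was above the naïve male pool. Rph3a was also called below naïve at 3 D (log2 fold change -1.72, SE 0.36, edgeR adjusted p = 0.0439). This call was lost without either naïve pool and without the crush male pool.

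Of the mitosis list 2 of 34 genes were called higher at 3 D than at 2 W, Ccna2 and Ccnb1. With Pbk, a mitotic kinase outside the list, they were higher by 3.77, 3.23 and 3.46 on the log2 scale (edgeR adjusted p = 0.0181, 0.0376 and 0.0322). In the comparison of 2 W with naïve MON, which shares the naïve pools, 9 of 34 genes of the mitosis list were called higher, where 2.13% of all genes tested were called higher and 2.72% in either direction, with a median log2 fold change of 1.87. The summed level was 258 and 130.4 CPM at 2 W. Hmox1 fell to 76.3 and 37 CPM (log2 difference 3.84, SE 0.42, edgeR adjusted p = 0.039), and Bcat1, a branched-chain aminotransferase, went from 204 and 324 CPM at 3 D to 19.9 and 37.8 CPM (edgeR adjusted p = 0.0399). Igf2 and Gas1 were lower at 3 D than at 2 W, with log2 differences of -6.86 and -5.84 (edgeR adjusted p = 0.0274 and 0.0322), and at 2 W both lay within the range of the naïve pools. Further calls, chosen after their values were seen, were Gm3226, a predicted gene at 1.32 and 0.544 CPM (scaled by library totals) at 3 D and 53 and 58.9 CPM at 2 W, and mt-Atp6, a mitochondrial gene listed at 0 in 3 of the 4 pools. No gene of the phagocyte list was called between the times. The macrophage list, which also holds Hmox1, had 1 call of 19, that of Hmox1. Arg1, of the macrophage list, had 3.15 and 0 CPM at 2 W (edgeR adjusted p = 0.116) and Spp1 4249.6 and 628 CPM (edgeR adjusted p = 0.283). The 2 W pools differed by more than 6 times in Spp1. With each library of these groups left out in turn the calls were 132 to 537 higher and 121 to 933 lower, and DESeq2 called 440 and 594.

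**Figure D5:**
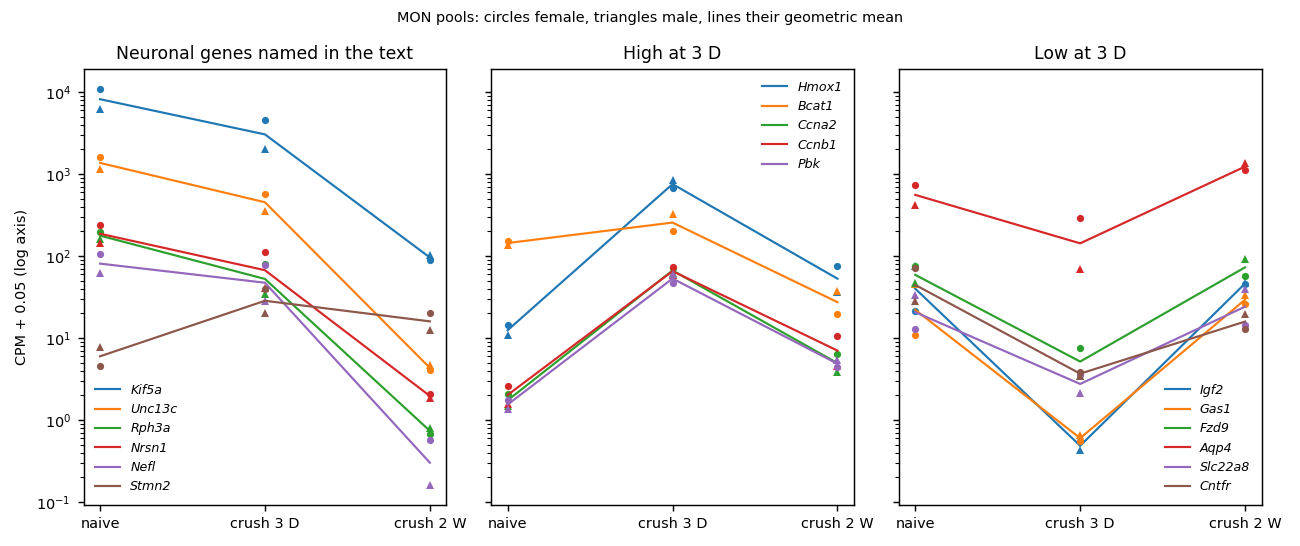
CPM + 0.05 on a log axis in naïve MON and at 3 D and 2 W after crush, for Stmn2 and 5 neuronal genes higher at 3 D than at 2 W (left), 5 genes high at 3 D (middle) and 6 genes low at 3 D (right); circles are female pools, triangles male pools and lines the geometric mean. Kif5a, Unc13c, Rph3a, Nrsn1 and Nefl fall mainly between 3 D and 2 W, and Igf2 and Gas1 are low at 3 D.

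Whether the 3 D response of MON differed from that of UON was tested by the interaction of region and crush, each region with its own naïve pools. By the study's methods both regions were dissected from each animal, and each condition had 2 mice of each sex. The MON and UON pools of a condition and sex therefore came from the same mice, and this fit treated them as separate samples. Among 25011 genes, 1 (0.004%) was called higher in MON and 2 (0.008%) lower, 3 in all (0.012%), and 1733 had an unadjusted p under 0.05. Esm1 had 3.00 and 1.80 CPM (scaled here by library totals) in the naïve MON pools and 90.2 and 37.9 CPM after crush. In UON it was already at 265 and 228 CPM in naïve pools and at 548 and 174 CPM after crush (log2 difference of the responses 4.37, SE 0.49, edgeR adjusted p = 0.0253). Igf2 fell in MON but stood at 91.7 and 101 CPM in naïve UON and at 53 and 108 CPM in crushed UON (log2 difference -6.39, SE 0.74, edgeR adjusted p = 0.0253). Both calls were lost without the MON crush male pool, and that of Esm1 also without the MON naïve male pool. With a block for the pool of mice, an alternative chosen after seeing the data, edgeR kept these 3 calls and called 8 genes higher in MON (0.032%) and 2 lower (0.008%), 10 in all (0.04%), with 1683 at an unadjusted p under 0.05. Besides Esm1, the genes then called higher were Spp1, Thbs1, Hmox1, Lilrb4a, Clec18a and the mitochondrial genes mt-Nd5 and mt-Tl1, the latter pair listed at 0 in 6 of these 8 pools. Spp1 had 50.7 and 57.7 CPM in the naïve and 119 and 688 CPM in the crushed female and male pools of UON, against 7359 and 15969 CPM in crushed MON on the same scale (log2 difference 6.16, SE 0.777, edgeR adjusted p = 0.0142 with the block and 0.325 without). Hmox1, heme oxygenase 1, had 13.2 and 27.7 CPM in crushed UON and 664 and 840 CPM in crushed MON (log2 difference 4.98, SE 0.527, edgeR adjusted p = 0.00416 with the block and 0.0575 without). Thbs1, Lilrb4a, an inhibitory receptor of myeloid cells, and Clec18a had log2 differences of 6.73, 4.69 and 6.25 (edgeR adjusted p = 0.0152, 0.00275 and 0.00439 with the block, and 0.085, 0.25 and 0.085 without). The other gene called lower, chosen after its value was seen, was Gm3226 (log2 difference -7.44, edgeR adjusted p = 0.0253). No gene of the mitosis list was called by this test, with the block or without it. The list summed to 89.3 and 53.1 CPM in naïve UON and 1993 and 1031 CPM in crushed UON. The phagocyte list summed to 7439 and 7492 CPM in naïve UON and 9661 and 12707 CPM after crush, and of its genes Spp1 was called in the interaction with the block and none without it. A p that misses the threshold here does not show that the regions responded alike, since the spread between pools was wider in this fit (biological coefficient of variation 0.647, against 0.464 in the fit of MON).

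Crush was also compared directly with the glaucoma model in MON at 3 D, again without the naïve pools. Of 24738 genes 1 (0.00404%) was called higher after crush and 3 (0.0121%) lower, with 2562 at an unadjusted p under 0.05. Igf2 was lower after crush, at 11.5 and 35 CPM (scaled by library totals) in the glaucoma pools and 0.495 and 0.375 CPM in the crush pools (log2 difference -5.82, SE 0.64, edgeR adjusted p = 0.0279). This call was lost without the MON crush male pool. The others, chosen after their values were seen, were Gm3226, lower after crush (log2 difference -7.09, edgeR adjusted p = 0.000136), and the mitochondrial genes mt-Rnr1 and mt-Atp6, each listed at 0 in 3 of the 4 pools. The glaucoma pools were unequal in the genes that crush raised: mitosis genes summed to 659 CPM in the female pool and 94 CPM in the male pool, and phagocyte genes to 25706 and 9263 CPM. Both lists were higher in each crush pool, with 1322 and 1513 CPM for mitosis and 37169 and 61241 CPM for phagocytes on the same scale. No gene of either list was called between crush and glaucoma, and the sums themselves were not tested.

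The crush pools also differed from each other. The male pool had more phagocyte RNA (62378 against 37601 CPM summed over the list) and less homeostatic astrocyte RNA (3374 against 7051 CPM) than the female pool. Mitosis genes were near each other in both, at 1541 and 1337 CPM. With 1 pool of each sex, sex, the mice pooled and the placement of the crush cannot be told apart.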

How the data were processed

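Total RNA of MON was sequenced as paired-end reads, and by the study's methods and the submitters' notes reads were checked with FastQC, aligned to GRCm38 with HISAT2 2.2.1 and assembled with StringTie 1.3.0. The deposited estimated counts per gene were derived by the authors from StringTie coverage and rounded up, so that 1 read pair adds about 4 counts. The FPKM and TPM values were also deposited by the authors, scaled per gene length. FPKM gave ranks only, and values just under 0 were set to 0.

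From the counts, edgeR 4.0.16 (R 4.3.3) fitted naïve, 3 D and 2 W MON with group and sex as terms (TMM scaling, a count of at least 10 in enough libraries and a total of 15). It left 2 residual degrees of freedom, and DESeq2 1.42.0 was an alternative. The SE of a fold change was its size divided by the square root of F. MON and UON, and crush and glaucoma, were fitted in the same way, and MON and UON also with a block for the pool of mice, since the methods took both from each animal. Across genes, deviations of the MON and UON pools from their group means correlated by -0.036 (naïve), 0.0805 (3 D) and 0.00891 (2 W). Tested on simulated data for 19988 genes of the 3 D comparison with naïve, the fit called 100 of 103 genes changed by 3 on the log2 scale, 39 of 97 changed by 1.5 and 5 unchanged genes. Only genes above 5 CPM were changed. The simulated spread followed the trend over genes, without a spread of its own per gene and without differences of sex or pool. These counts therefore do not measure how reliable the real calls are. Total counts were 16326906 to 78054205 per library.

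Genes were named by rule, as the 12 largest called changes in each direction with a mean of at least 10 CPM in the higher group and the same sign in both sexes, the first 4 members of each of 47 lists with up to 4 of the largest calls in each direction, and the 6 largest differences in each direction of the 3 difference tests under the same conditions. Predicted (Gm), Rik, mitochondrial, pseudogene and unnamed loci were left out. Other genes in the text were chosen after their values were seen. The members and lists were chosen with earlier results of these data known. A gene symbol under 2 identifiers (2 symbols) was taken at the one with more counts. Whether counting used strand is not given in the sources used here, so overlapping genes are uncertain. Some genes counted in the totals are not reported here by name.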

Additional observations from a re-analysis of the deposited data

Results flagged for a closer look

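The genes below had a response that differed between groups by edgeR's test of the difference itself, with log2 differences that rest on 2 pools per group. Between 3 D and 2 W after crush, the differences were 4.96 for Kif5a, 5.12 for Nrsn1, 7.50 for Nefl, 6.20 for Rph3a and 6.70 for Unc13c, which were higher at 3 D. Of these, Nefl is in the axonal and neuronal list and was its 1 call of 19. They were 3.23 for Ccnb1, 3.46 for Pbk and 3.77 for Ccna2 (Ccnb1 and Ccna2 are the 2 calls of the 34 mitosis genes), 3.21 for Bcat1 and 3.84 for Hmox1. Igf2, Gas1 and the predicted gene Gm3226 were lower at 3 D than at 2 W, with differences of -6.86, -5.84 and -5.97.

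The response of MON less that of UON was 4.37 for Esm1, -6.39 for Igf2 and -7.44 for Gm3226. The 3 calls were lost without the MON crush male pool. Crush less glaucoma at 3 D was -5.82 for Igf2 and -7.09 for Gm3226, of which only that of Igf2 was lost under an alternative. Gm3226 had 84.5 and 97.9 CPM (scaled by library totals) in naïve MON, 1.32 and 0.544 CPM at 3 D after crush and 119 and 99.9 CPM in the glaucoma pools.

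The mitochondrial genes mt-Atp6 and mt-Rnr1 gave fitted differences from single pools. mt-Atp6 was at 2424 CPM in the crush female pool and listed at 0 in the crush male pool and in both 2 W and both glaucoma pools (differences 17.79 and 18.37). mt-Rnr1 was at 882 CPM in the glaucoma female pool and listed at 0 in the other 3 (difference -16.24). In the comparison of 3 D with naïve MON, mt-Nd1, mt-Rnr2 and mt-Atp8 had fitted log2 fold changes of -18.51, 12.89 and 12.92, each from a single pool. Since every nerve library holds mitochondrial RNA, these zeros are listed values and not levels, and the 3 differences of mt-Atp6 and mt-Rnr1 were lost without the pool that carried them.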

How the results depend on the processing

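Calls at 3 D against naïve MON (721 higher, 131 lower) rose to 1451 and 910 with DESeq2, 1307 and 790 with the 4 libraries alone and 1419 and 691 without a filter on low counts. Genes called lower numbered 461 with all 12 MON libraries, 284 with counts divided by 4 and 274 without the sex term. RLE scaling kept 799 of the 852 calls. With a library left out they ranged from 14 to 1702 higher and from 5 to 1055 lower, fewest without the naïve female pool. Direction turned in 1 of 852 genes, in that fit. The ranges were 4 to 34 for mitosis, 1 to 21 for DNA replication, 0 to 19 for phagocytic microglia, 0 to 12 for macrophages, 0 to 17 for chemokines, 0 to 8 for A2 genes, 0 to 10 for immediate early genes and 0 to 14 for proteases. DESeq2 called 16 chemokine genes. Proteases gave 10 calls with DESeq2, 10 with the 4 libraries and 12 without the filter. The cause of these shifts was not tested.

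For 3 D against 2 W (12 and 3 calls), DESeq2 gave 440 and 594 and no filter 420 and 558, with ranges of 132 to 537 and 121 to 933 for a left-out library. For MON less UON (1 and 2) these were 182 and 124, 242 and 133, and 0 to 10 and 0 to 7. For crush less glaucoma (1 and 3) they were 287 and 286, 163 and 193, and 1 to 104 and 3 to 180. The median log2 difference of mitosis genes, 2.93 in log2(FPKM + 1), was 3.51 in TPM and 4.54 with a pseudocount of 0.1. With a replicate block for the pool of mice, added after seeing the data, MON less UON gave 8 and 2 calls. For crush against naïve MON no paired analysis was possible because they were different mice and the labels number no replicates; sex was a term in the fit. Low counts limit what could be called, since genes under the filter were not tested.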
